A study of Mus musculus with 8 samples.

Results

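MHC class I molecules display peptides from inside the cell to T cells, and 10 genes of this pathway were described here in mouse regulatory T cells (Treg) with and without floxed Pdpk1. They were 10 of the 19826 genes that the deposited table lists, taken by name: the heavy chain genes H2-K1, H2-D1, H2-Q4, H2-Q6 and H2-Q7, the light chain gene B2m, the peptide loading genes Tap1, Tap2 and Tapbp, and the regulator gene Nlrc5. All 10 passed the filter on low values. RNA-seq was done on CD4+ YFP+ Treg sorted from spleen and peripheral lymph nodes of untreated C57BL/6 mice. The 4 Pdpk1 KO libraries came from Foxp3 YFP-Cre/+ Pdpk1 FL/FL mice and the 4 WT libraries from Foxp3 YFP-Cre/+ Pdpk1 +/+ mice, so both groups carried Cre. The labels used here leave out the ages of the mice. Cre is made from the Foxp3 locus on 1 of the 2 X chromosomes, so the YFP+ Treg sorted here shared the animal with Treg that lack Cre. Pdpk1 encodes PDK1, a kinase downstream of PI3K. The labels do not say whether a library is 1 mouse, and p-values therefore measure the spread between libraries.

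As background, a class I molecule is a heavy chain paired with beta-2-microglobulin and a short peptide, and nearly all nucleated cells carry it. Peptides cut by the proteasome are pumped into the endoplasmic reticulum by the transporter TAP and loaded with the help of tapasin. In lymphocytes NLRC5 drives transcription of these genes through a conserved promoter module called SXY, which lies near an interferon response element (ISRE) and a kB site. Interferons raise the whole pathway.

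The promoter stretches of the 5 heavy chain genes and of B2m are shown because elements of this module and its neighbouring sites recur in them. These elements differ between copies, and the choice of genes did not use them. They are RefSeq sequences on GRCm38.p6, 5′ to 3′ on the strand of the gene. Of the 10 members, 8 matched an entry of the promoter table, which spans 250 bases before to 50 bases after each transcript start. Capitals mark matches on either strand to GGG and CC with any 5 bases between them (kB-like), TTTCNNTT (ISRE-like), TGACG (X2-like) and ATTGG (Y-like). Of the SXY module, only the X2-like and Y-like letters were searched. Some kB-like matches overlap each other.
H2-K1 (chr17:34000344-34000475, minus strand): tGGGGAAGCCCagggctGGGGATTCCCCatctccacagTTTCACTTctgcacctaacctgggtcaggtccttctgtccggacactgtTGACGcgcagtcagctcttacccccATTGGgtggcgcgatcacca
H2-D1 (chr17:35262906-35263037, plus strand): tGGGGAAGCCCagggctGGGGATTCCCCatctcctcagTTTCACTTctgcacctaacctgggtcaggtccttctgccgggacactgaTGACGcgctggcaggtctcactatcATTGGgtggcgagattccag
H2-Q4 (chr17:35379426-35379557, plus strand): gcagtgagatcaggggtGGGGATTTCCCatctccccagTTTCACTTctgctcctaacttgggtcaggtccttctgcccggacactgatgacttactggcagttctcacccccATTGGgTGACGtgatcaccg
H2-Q6 (chr17:35424660-35424791, plus strand): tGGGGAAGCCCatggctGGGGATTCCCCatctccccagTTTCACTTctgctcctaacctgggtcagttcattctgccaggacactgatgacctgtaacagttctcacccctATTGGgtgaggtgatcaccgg
H2-Q7 (chr17:35439004-35439135, plus strand): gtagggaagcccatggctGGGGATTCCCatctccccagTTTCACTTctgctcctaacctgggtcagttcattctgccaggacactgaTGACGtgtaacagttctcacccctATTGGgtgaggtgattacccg
B2m (chr2:122147538-122147650, plus strand): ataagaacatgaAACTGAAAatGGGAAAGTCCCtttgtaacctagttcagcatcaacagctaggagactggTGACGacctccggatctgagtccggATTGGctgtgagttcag

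In the heavy chain stretches the kB-like match, the ISRE-like match and the Y-like match came in the same order. H2-K1, H2-D1 and H2-Q7 had TGACG between the ISRE-like and the Y-like match. H2-Q4 had it downstream of the Y-like match instead, and the 300 bases of H2-Q6 searched held no TGACG. In B2m the ISRE-like match lay on the other strand, upstream of the kB-like match shown. Of the 8 member promoters, 7 held the kB-like motif, against 50.8% of the 32851 promoters in the table. The ISRE-like motif was in 6 of 8, against 23.9% of all, the X2-like motif in 6 of 8, against 20.8%, and the Y-like motif in 8 of 8, against 37.4%. All 4 motifs together were in 5 of the 8 promoters and in 0.71% of all. The motifs were picked as elements of class I promoters, and several of these promoters belong to close gene copies. The shares are therefore a description and not a test of enrichment. A match is only a match of letters, and a missing one says only that these letters are not in the window.

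**Figure D1:**
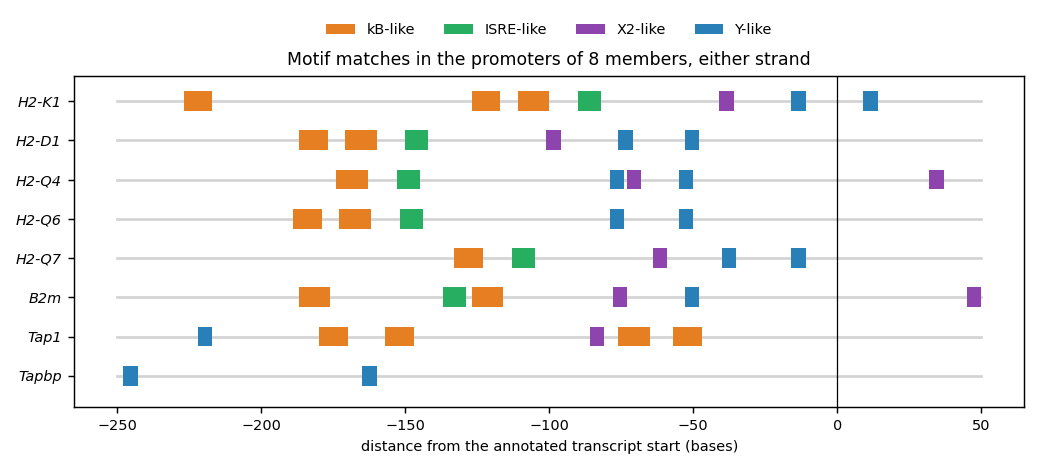
Positions of the 4 motifs on either strand (coloured bars) in the promoters of 8 members, against distance from the annotated transcript start in bases. H2-Q6 has no X2-like bar, Tap1 lacks the ISRE-like bar and Tapbp has Y-like bars alone.

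The recovered depth was 20004776 to 26299577 reads in Pdpk1 KO libraries and 17448095 to 23862921 in WT libraries. Each member rested on 47669 to 784010 reads over the 8 libraries, so counting error was small beside the spread between libraries. Pdpk1 had 2505, 1900, 1872 and 1656 normalized counts in Pdpk1 KO replicates 1 to 4, against 2600, 2374, 1995 and 1923 in WT replicates 1 to 4. The log2 change was -0.17 (95% interval -0.452 to 0.111, limma adjusted p = 0.491). The labels used here do not name the floxed exons, and the table sums reads over all exons, so this value does not check the deletion. Cells were Treg by their markers: Foxp3 averaged 5355 ± 743 normalized counts in Pdpk1 KO libraries and 5086 ± 740 in WT libraries (SD, n = 4 each), and Cd4 and Cd3e stood at 6769 or more in every library. B cell markers summed to 6057 to 7271 normalized counts in Pdpk1 KO libraries and 5655 to 9425 in WT libraries. Most of that was Ighm, the immunoglobulin heavy chain gene, with 5890 to 6963 in Pdpk1 KO and 5296 to 9016 in WT libraries, while 4 of the 7 B cell markers in the table, Ms4a1 among them, were at 0 in at least 1 library. Of 18 macrophage markers 17 were tested, of which 8 rose in Pdpk1 KO libraries, where 4.41% of all genes tested did, and 9 did not pass. Their summed level was 6118 to 11793 normalized counts in Pdpk1 KO libraries and 6361 to 8284 in WT libraries. Ctsb made up most of that sum in every library and was left out after its values were seen. The sums were then 1669 to 5537 in Pdpk1 KO libraries and 329 to 1699 in WT libraries. Of these markers 7 were at 0 in at least 1 library, whereas Csf1r and Adgre1 were above 0 in all 8. Pdpk1 KO replicates 2 and 3 had the highest mean macrophage marker level. Not every marker followed this order: Lyz2 had 604, 101, 243 and 310 normalized counts in Pdpk1 KO replicates 1 to 4.

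Per kilobase of merged exon, B2m was the most abundant member and Nlrc5 the least. B2m had 65817 ± 8704 normalized counts per kb in Pdpk1 KO libraries and 67687 ± 12781 in WT libraries (SD, n = 4 each, as for all levels per kb here). The classical heavy chain genes followed, H2-K1 with 31065 ± 2019 normalized counts per kb in Pdpk1 KO and 34630 ± 3475 in WT libraries, and H2-D1 with 27661 ± 1827 and, in WT libraries, 28579 ± 2148. The ranges of H2-K1 and H2-D1 over the 8 libraries overlapped, so their order is not resolved. H2-Q6, H2-Q7 and H2-Q4 came next, between 3414 and 5215 normalized counts per kb in group means, with ranges that overlapped from each to the next. H2-Q7 had the higher mean per kb in Pdpk1 KO libraries (3954 against 3744 for H2-Q6). In WT libraries H2-Q6 had it (5215 against 4433 for H2-Q7). This order depends on the merged exon lengths, 4.265 kb for H2-Q7 and 2.085 kb for H2-Q6. Merged exons pool all annotated transcripts of a gene, whether or not they are present in these cells, which limits all ranks per kb. In normalized counts H2-Q7 was above H2-Q6 in all 8 libraries. Tapbp stood at 2328 ± 179 per kb in Pdpk1 KO and 2764 ± 399 in WT libraries, and its range overlapped that of H2-Q4. Tap1 and Tap2, whose products pair within the transporter, lay between 1543 and 1806 per kb in group means. Nlrc5 had 743 ± 141 normalized counts per kb in Pdpk1 KO and 693 ± 130 in WT libraries, below every other member in all libraries.

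H2-Q6 fell in Pdpk1 KO libraries, no member rose, and the other 9 members did not pass the test. The log2 changes were negative for 9 of the 10 members and positive for Nlrc5. Across all 13847 genes tested, limma called 5.06% lower and 4.41% higher, 9.47% in all, so 1 called gene among 10 is near the background. The median log2 change was -0.12 over the members and -0.007 over all genes tested. For no member did the 4 Pdpk1 KO values lie entirely apart from the 4 WT values, against 15.3% of all tested genes (8.24% lower and 7.06% higher). Over the 9 members not called, the 95% intervals ran from -0.47 at the lowest to 0.40 at the highest. Larger log2 changes than these were outside every interval. The intervals hold for the authors' scaling, and quantile normalization, given below, called 5 members lower. All changes are on the log2(normalized count + 1) scale, Pdpk1 KO minus WT, from limma with Benjamini-Hochberg adjustment over all genes tested and a threshold of 0.05.

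**Figure D2:**
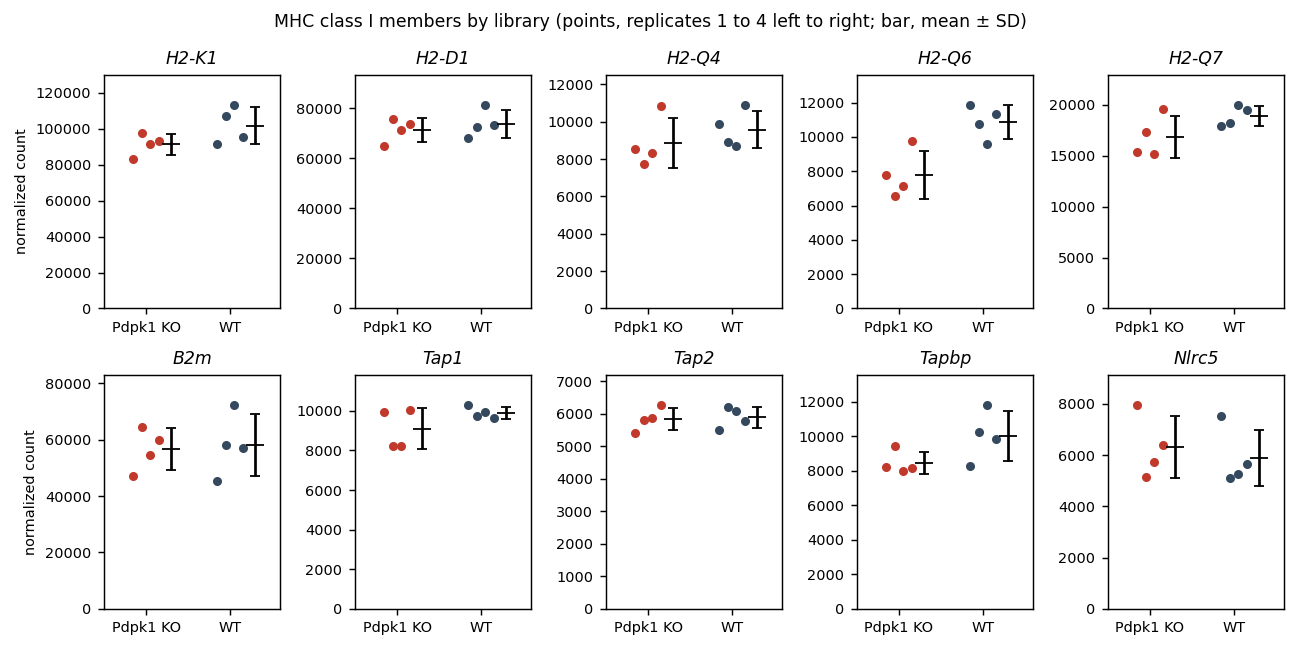
Normalized counts (y axis, from 0) of the 10 members in each of the 4 Pdpk1 KO and 4 WT libraries (points, replicates 1 to 4 from left to right), with mean ± SD as a bar. H2-Q6 shows the clearest offset, with only Pdpk1 KO replicate 4, at 9772, reaching the WT values.

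H2-Q6 (ENSMUSG00000073409, chromosome 17, 35424850 to 35430055, plus strand, protein coding) encodes a Qa-2 molecule, a non-classical class I protein of mice. It had 7753, 6579, 7117 and 9772 normalized counts in Pdpk1 KO replicates 1 to 4, against 11858, 10724, 9584 and 11327 in WT replicates 1 to 4. Replicate 4 was the highest Pdpk1 KO library and lay above WT replicate 3, the only point where the groups met. The log2 change was -0.49 ± 0.12 (SE, 95% interval -0.745 to -0.235, limma adjusted p = 0.0167), so the level fell by 28.8% in Pdpk1 KO libraries. In bulk libraries such as these, fewer cells of a type and less RNA per cell cannot be told apart. An exact permutation of the library labels (two-sided, 70 arrangements) gave p = 0.0571, where 0.0286 is the smallest it can give. edgeR (adjusted p = 0.0252) and DESeq2 (adjusted p = 0.00186) on the recovered reads also called it, and called 4.73% and 6.69% of all genes lower. The call was lost without Pdpk1 KO replicate 2, Pdpk1 KO replicate 3 or WT replicate 4, at limma adjusted p = 0.0581, 0.0658 and 0.0541. With the mean macrophage marker level as a covariate the change was -0.31 (limma adjusted p = 0.342), and without Pdpk1 KO replicates 2 and 3 together it was -0.32 (limma adjusted p = 0.266). This covariate differed between the groups, averaging 6.64 in Pdpk1 KO and 4.71 in WT libraries (log2). Over all genes, 297 were lower with the covariate and 449 without these replicates, against 700 in the reported fit. The part of macrophage transcripts in the H2-Q6 result was not tested.

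H2-Q7 (ENSMUSG00000060550, chromosome 17, 35439155 to 35443773) also encodes a Qa-2 molecule and is the neighbouring copy. Its normalized counts were 15409, 17312, 15151 and 19588 in Pdpk1 KO replicates 1 to 4, against 17888, 18259, 19991 and 19485 in WT replicates 1 to 4. Replicate 4 of Pdpk1 KO was again the highest of its group and lay within the WT values, while the other 3 were below all WT libraries. The log2 change of H2-Q7 was -0.17 ± 0.11 (SE, 95% interval -0.395 to 0.053, limma adjusted p = 0.371). H2-Q4 (ENSMUSG00000035929, chromosome 17, 35379617 to 35385290), a further non-classical heavy chain gene of the same cluster, had 8544, 7748, 8320 and 10842 normalized counts in Pdpk1 KO libraries, against 9856, 8897, 8679 and 10892 in WT libraries. Its log2 change was -0.12 ± 0.12 (SE, 95% interval -0.363 to 0.126, limma adjusted p = 0.598), and it was 0.032 with the macrophage covariate.

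The Q genes are close copies, and the sources used here do not say how reads that map to more than 1 gene were counted. In the GENCODE M21 transcripts, 32.0% of the 50-base windows of H2-Q6 also occur in transcripts of another gene, most often H2-Q7 (13.9%) and H2-Q4 (12.3%). For 100-base windows this share was 10.8% for H2-Q6, 12.0% for H2-Q7 and 2.2% for H2-Q4. The same shares were 1.0% for H2-K1, 3.6% for H2-D1 and 0% for B2m, Tap1, Tap2 and Nlrc5. For 50-base windows they were 26.4% for H2-Q7, 21.8% for H2-Q4, 12.8% for H2-D1 and 9.6% for H2-K1. Tapbp, Tap2 and Tap1 shared 2.9, 0.7 and 0.4% of their 50-base windows, and B2m and Nlrc5 0%. Levels of the Q genes are therefore uncertain in this respect, and those of H2-K1 and H2-D1 less so. B2m and Nlrc5 had no shared windows of either length. Windows were compared in the direction of each transcript, so sequence shared with antisense genes was not searched. H2-Q6 made up 33.5, 27.5, 32.0 and 33.3% of the H2-Q6 and H2-Q7 normalized counts together in Pdpk1 KO replicates 1 to 4, against 39.9, 37.0, 32.4 and 36.8% in WT replicates 1 to 4. WT replicate 3, the lowest of its group, lay within the Pdpk1 KO values. The 3 Q genes summed to 31706, 31640, 30588 and 40203 normalized counts in Pdpk1 KO libraries, against 39603, 37881, 38253 and 41705 in WT libraries. This sum does not depend on how the counted reads were divided among the 3, and Pdpk1 KO replicate 4 was again the library that lay among the WT values. The sum can still depend on reads shared with genes outside the 3. Of the 50-base windows of H2-Q7, 14.0% also occur in H2-Q10 transcripts and 8.7% in H2-Q5 transcripts.

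**Figure D3:**
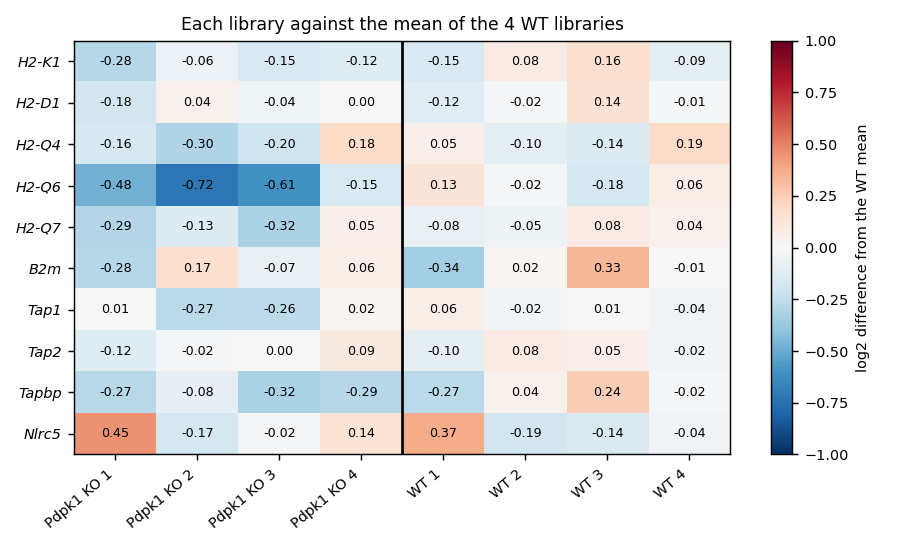
Log2 difference of each library from the mean of the 4 WT libraries (colour and printed value) for the 10 members (rows), Pdpk1 KO libraries on the left. H2-Q6 is the row with the lowest values, -0.72 in Pdpk1 KO replicate 2 and -0.61 in replicate 3, and Nlrc5 is highest in replicate 1 of both groups.

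H2-K1 (ENSMUSG00000061232, chromosome 17, 33996017 to 34000347, minus strand) and H2-D1 (ENSMUSG00000073411, chromosome 17, 35262730 to 35267499) encode the classical class I heavy chains that present peptides to CD8 T cells. H2-K1 had 83268, 97457, 91267 and 93081 normalized counts in Pdpk1 KO replicates 1 to 4, against 91309, 107226, 113203 and 95235 in WT replicates 1 to 4. The 2 highest values, in WT replicates 2 and 3, exceeded all Pdpk1 KO libraries, and the remaining WT values lay among them. Its log2 change was -0.15 ± 0.14 (SE, 95% interval -0.444 to 0.137, limma adjusted p = 0.557). H2-D1 had 64791, 75703, 71357 and 73503 normalized counts in Pdpk1 KO libraries, against 67904, 72589, 81243 and 73090 in WT libraries. WT replicate 3 lay above all Pdpk1 KO libraries and the other 3 WT libraries lay among them, with a log2 change of -0.05 ± 0.13 (SE, 95% interval -0.312 to 0.219, limma adjusted p = 0.875). The ratio of H2-K1 to H2-D1 normalized counts was 1.27 to 1.29 in Pdpk1 KO libraries and 1.30 to 1.48 in WT libraries.

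B2m (ENSMUSG00000060802, chromosome 2, 122147686 to 122153083, plus strand) encodes the light chain shared by all these heavy chains. Its normalized counts were 47149, 64530, 54655 and 60075 in Pdpk1 KO replicates 1 to 4, against 45341, 58088, 72204 and 57209 in WT replicates 1 to 4. The lowest and the highest value were both in WT libraries, and the coefficient of variation was 13.2% in Pdpk1 KO and 18.9% in WT libraries. The log2 change was -0.03 ± 0.15 (SE, 95% interval -0.356 to 0.295, limma adjusted p = 0.932). It was 0.054 without Pdpk1 KO replicate 1 and 0.079 without WT replicate 3.

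Tap1 (ENSMUSG00000037321, chromosome 17, 34187553 to 34197225) and Tap2 (ENSMUSG00000024339, chromosome 17, 34203527 to 34216321) encode the chains of the peptide transporter TAP. Tap1 had 9939, 8208, 8228 and 10050 normalized counts in Pdpk1 KO replicates 1 to 4, against 10278, 9721, 9928 and 9637 in WT replicates 1 to 4. Pdpk1 KO replicates 2 and 3 were the lowest of the 8 libraries, and replicates 1 and 4 lay among the WT values. The coefficient of variation of Tap1 was 11.3% in Pdpk1 KO and 2.89% in WT libraries. Its log2 change was -0.13 ± 0.10 (SE, 95% interval -0.331 to 0.080, limma adjusted p = 0.488), and 0.016 without Pdpk1 KO replicates 2 and 3, the libraries highest in macrophage markers. Tap2 had 5409, 5802, 5873 and 6253 normalized counts in Pdpk1 KO libraries, against 5482, 6212, 6076 and 5782 in WT libraries. It had the narrowest interval of the members, with a log2 change of -0.01 ± 0.09 (SE, 95% interval -0.198 to 0.171, limma adjusted p = 0.948).

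Tapbp (ENSMUSG00000024308, chromosome 17, 33915899 to 33929292) encodes tapasin, which holds the empty class I molecule at TAP. It had 8227, 9411, 7991 and 8158 normalized counts in Pdpk1 KO replicates 1 to 4, against 8260, 10245, 11779 and 9833 in WT replicates 1 to 4. WT replicate 1 lay among the Pdpk1 KO values, and the other 3 WT libraries were above all of them. The log2 change was -0.24 ± 0.11 (SE, 95% interval -0.473 to -0.005), not past the threshold (limma adjusted p = 0.206, exact permutation p = 0.0571). It passed with total read scaling, at -0.35 (limma adjusted p = 0.0276). In the annotation, the spans of antisense genes, introns included, overlap those of B2m, H2-Q4, Tap1, Tap2, Tapbp and Nlrc5. Whether exons overlap was not examined. Where they do, reads of both genes may not be told apart, as no strand setting is stated. B2m lies wholly within the span of Patl2, Psmb9 overlaps 212 bases at the start of Tap1, and Tapbp also overlaps Zbtb22 on its own strand.

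Nlrc5 (ENSMUSG00000074151, chromosome 8, 94434356 to 94527272, plus strand) encodes the transactivator of class I promoters. It had 7939, 5161, 5747 and 6389 normalized counts in Pdpk1 KO replicates 1 to 4, against 7508, 5105, 5273 and 5666 in WT replicates 1 to 4. Replicate 1 was the highest library of each group. The log2 change was 0.10 ± 0.14 (SE, 95% interval -0.200 to 0.397, limma adjusted p = 0.737), -0.018 without Pdpk1 KO replicate 1 and -0.010 with total read scaling.

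**Figure D4:**
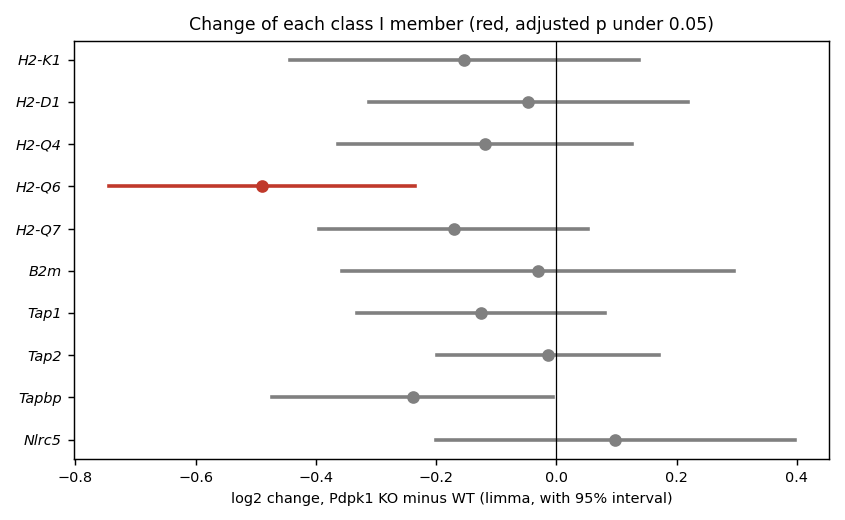
Log2 change of each member, Pdpk1 KO minus WT (points), with the limma 95% interval (lines). H2-Q6 is the member called (red), at -0.49, and the interval of Tapbp ends at -0.005.

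The scale mattered for the most abundant members. Class I transcripts made up 1.21, 1.27, 1.23 and 1.33% of all reads in Pdpk1 KO replicates 1 to 4, against 1.40, 1.46, 1.54 and 1.46% in WT replicates 1 to 4, so these shares did not overlap. In the authors' normalized counts the same sums overlapped, at 258427 to 297912 in Pdpk1 KO libraries and 275684 to 337959 in WT libraries. How many of all genes had groups apart in shares of total reads was not computed. Scaling to total reads, chosen after the data were seen, shifted the median log2 change of all genes to -0.11 and the calls over all genes to 360 higher and 1054 lower, against 611 higher and 700 lower with the authors' size factors. It called H2-Q6 and Tapbp lower. Quantile normalization, which gives every library the same distribution of values, called 5 members lower: H2-K1 at -0.45 (limma adjusted p = 0.00153), H2-D1 at -0.38 (limma adjusted p = 0.00537), B2m at -0.41 (limma adjusted p = 0.00253), H2-Q7 at -0.32 (limma adjusted p = 0.0223) and H2-Q6. Over all 13847 genes quantile normalization called 627 higher and 734 lower, with a median log2 change of 0.012. No scaling called a member higher.

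Genes around the members in the pathway were read from further lists, some of which share genes. Over all genes tested, limma called 9.47% in either direction. Of 16 other class I and class I-like heavy chains, 11 were tested and 0 passed the limma threshold in either direction, with a median log2 change of -0.04. H2-T23, which encodes Qa-1, averaged 13498 ± 698 normalized counts in Pdpk1 KO and 12250 ± 1837 in WT libraries (SD, n = 4 each), and H2-T22 changed by -0.04 (limma adjusted p = 0.863). Of 12 other loading and quality control genes, 0 passed. The chaperone genes Calr, for calreticulin, and Pdia3, for ERp57, which both join the loading complex, were at -0.30 (limma adjusted p = 0.173) and -0.16 (limma adjusted p = 0.444). Calr passed with quantile normalization, at -0.33 (limma adjusted p = 0.0451), and with total read scaling, at -0.41 (limma adjusted p = 0.0275). Of 6 genes of the immunoproteasome and its PA28 activator, 0 passed, with Psmb8, a catalytic subunit, at -0.13 and the activator gene Psme1 at 0.004. The 3 constitutive catalytic subunits did not pass either, with Psmb5 at 0.045 and Psmb6 at 0.002.

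Of 14 transcription factor genes tied to class I promoters, 0 passed the limma threshold. Nfkb1, an NF-kB subunit gene, was at -0.24 (limma adjusted p = 0.147), and passed with quantile normalization, at -0.30 (limma adjusted p = 0.0213), and with total read scaling, at -0.35 (limma adjusted p = 0.0276). Of 12 genes of interferon receptors and their proximal signalling, 1 fell and 0 rose, against 5.06% and 4.41% of all genes tested. That gene was Tyk2, a kinase of type I interferon receptors, with 1742, 1452, 1536 and 1608 normalized counts in Pdpk1 KO libraries, against 2380, 1843, 2130 and 2100 in WT libraries. The groups did not overlap, and the log2 change was -0.41 ± 0.10 (SE, limma adjusted p = 0.0187). It was -0.20 with the macrophage covariate (limma adjusted p = 0.457), which lowered the calls over all genes from 700 to 297 in this direction. Tyk2 was also not past the threshold without Pdpk1 KO replicate 2 or 3 or without WT replicate 1 or 4.

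In Pdpk1 KO libraries, limma called 4.41% of all genes tested higher and 5.06% lower. Of 24 interferon-induced genes outside the class I pathway, 6 rose in Pdpk1 KO libraries, 0 fell and 18 did not pass. Their median log2 change was 0.36, beside -0.12 for the class I members, and the difference between the lists was not tested. Gbp2, a guanylate-binding protein gene induced by interferon, had 14630, 12889, 8705 and 11436 normalized counts in Pdpk1 KO libraries, against 3240, 2863, 3484 and 2472 in WT libraries. The groups lay far apart, with a log2 change of 1.97 ± 0.145 (SE, limma adjusted p = 1.27e-06). Gbp3, Gbp7 and Oasl2 rose by 1.29, 0.75 and 0.94 on the log2 scale. The groups did not overlap for Oasl2, but it lost its call in 5 of 20 alternatives, among them without Pdpk1 KO replicate 4 (limma adjusted p = 0.0673) and without WT replicate 2, 3 or 4 (limma adjusted p = 0.0609, 0.057 and 0.0898). Oasl2 was highest in Pdpk1 KO replicates 1 and 4, the Pdpk1 KO libraries lowest in mean macrophage marker level. With the macrophage covariate Gbp2, Gbp3, Gbp7 and Oasl2 were at 2.15, 1.33, 1.14 and 1.51, all past the limma threshold.

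**Figure D5:**
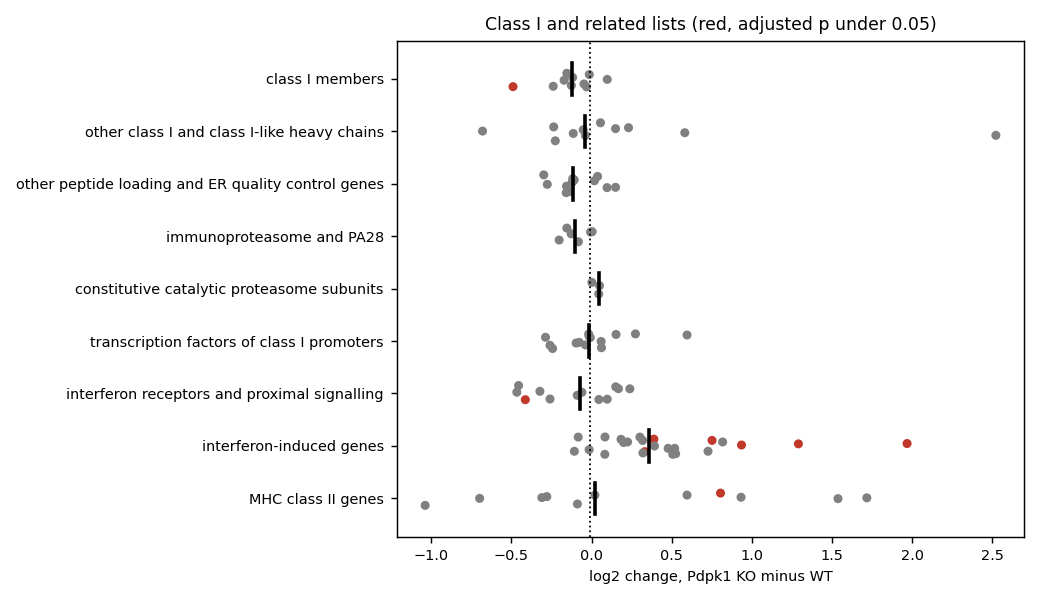
Log2 change, Pdpk1 KO minus WT, of every tested gene (points, red where the limma adjusted p is under 0.05) in the class I members and 8 related lists, with list medians (black bars) and the median of all genes (dotted line). The interferon-induced genes have a median of 0.36, and the class I members one of -0.12.

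Class II and cell type lists gave the surroundings of these values, beside 4.41% of all genes tested called higher and 5.06% called lower. Of 11 MHC class II genes, 1 rose, H2-Ob, a chain of the peptide exchange inhibitor H2-O, at 0.81 (limma adjusted p = 0.000997), 0 fell and 10 did not pass. The summed class II level was 10013 to 12685 normalized counts in Pdpk1 KO and 8914 to 12130 in WT libraries. The macrophage markers with the smallest adjusted p were Lyz2, C1qa, Vcam1 and Cd68, at 2.88, 2.11, 1.92 and 1.28. Vcam1, C1qa and Cd68 were not past the threshold without Pdpk1 KO replicate 2 or without replicate 3, Vcam1 also without WT replicate 3 or 4, and Cd68 also without WT replicate 4 (limma adjusted p = 0.0524 to 0.0933). Of 3 tested B cell markers, Cd79b fell by 1.17 and 2 did not pass. The single tested dendritic cell marker, Zbtb46, was at -1.01 (limma adjusted p = 0.639), and of 3 tested CD8 and NK cell markers 0 passed, with Cd8b1 at 0.19 and Eomes at -0.12. Of 9 T cell and Treg markers, Il2ra rose by 0.63, Ikzf2 and Trac fell by 1.13 and 0.68, and 6 did not pass.

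Of the 10 members, 8 lie within chromosome 17, 33915899 to 35443773, the mouse MHC region from Tapbp to H2-Q7. Another 74 tested genes lie inside this interval, and 67 of them did not pass. Of the 74, 6 were higher (8.1%, against 4.41% of all genes tested) and 1 was lower (1.4%, against 5.06%). The median log2 change of the 74 was -0.03. The lower gene was Prrt1, at -1.53 (limma adjusted p = 0.00586), named after its value was seen. Pdpk1 itself lies outside the interval on the same chromosome, at 24073680 to 24150924. Whether sequence linked to the floxed allele differs between the groups in this region was not tested.

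The genes closest in pattern to 3 of the members were listed by the mean absolute difference of log2 values over the 8 libraries, after each gene's own mean was subtracted. Among 9831 genes compared, the closest to H2-K1 were Tmbim6, Sugt1 and Cdkn2aipnl, at 0.029, 0.034 and 0.034. The closest to Tap1 were Abcf3, N4bp1 and Rnf31, at 0.041, 0.044 and 0.046. The closest to Nlrc5 were Atrx, Fam208a and Rab2b, at 0.048, 0.055 and 0.056. None of these 9 genes was among the related lists, and all the values share the same 8 libraries and their scaling.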

How the data were processed

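Polyadenylated RNA of 8 libraries was analysed. The deposited table holds signal values, read counts per gene over 1 DESeq2 size factor for each library, as made by the authors, per the file name and the submitters' processing notes. They list, without roles, the build GRCm38 and the tools DESeq2 1.21, featureCounts of Subread 2.0.1, STAR 2.7.6a, Trimmomatic 0.39 and SAMtools 1.11. Annotation, strand setting and handling of multi-mapping reads: not given in the sources used here. All values (100%) were whole multiples of the library's smallest positive value within 0.001, so whole reads were recovered. Of 19826 Ensembl genes, 19775 matched a GENCODE M21 symbol. Genes with at least 10 normalized counts in 4 of 8 libraries (13847) were tested with limma 3.58.1 in R 4.3.3 (lmFit, eBayes with trend) on log2(normalized count + 1), two-sided, Benjamini-Hochberg adjusted, without a replicate term. Single members were also compared by exact permutation. edgeR 4.0.16 and DESeq2 1.42.0 were run on the recovered reads. All 3 tools were also run on simulated counts with independent libraries and no differences in cell content. That run says nothing about such differences here. The members, the 13 related lists and the motifs were chosen with earlier results of these data known, so no list was tested as a set and no p was adjusted over a list alone. Named genes were the 10 members, Pdpk1 and Foxp3, and from every list the called genes of lowest adjusted p, at most 4, or, with 0 called, the 2 most abundant, of which 1 gene is not reported here. For H2-K1, Tap1 and Nlrc5 the 3 nearest genes with a mean of at least 50 were added. Other alternatives are given in the closing section.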

Additional observations from a re-analysis of the deposited data

Results flagged for a closer look

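Values of 74 groups of 4 libraries were searched for a single library far from the rest, and 2 were found, where chance gives about 1 in 20. Tapbp stood at 9410.7 normalized counts in Pdpk1 KO replicate 2, against 7991.4 to 8226.8 in the other 3 Pdpk1 KO libraries. Cd68, a macrophage marker, stood at 29 normalized counts in WT replicate 4, against 45.9 to 48.5 in the other 3 WT libraries.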

How the results depend on the processing

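Leaving out Pdpk1 KO replicates 2 and 3 together and total read scaling were chosen after the data were seen. No member was called higher in any of the 20 alternatives. The count of members called lower, 1 in the reported fit, was 5 with quantile normalization, 2 with total read scaling, 0 with the macrophage covariate, 0 without Pdpk1 KO replicates 2 and 3, and 0 to 1 when single libraries were left out. With the replicate number as a block it was 2, H2-Q6 and Tapbp (limma adjusted p = 0.0469), Calr and Nfkb1 also passed (limma adjusted p = 0.0295 and 0.0105), and over all genes 1243 were higher and 1292 lower. The labels do not state that equal numbers pair libraries, and the reported fit used no pairing. Correlations of deviations in the 4 same-numbered pairs were all positive (0.048 to 0.217), and over 0.1 in 2 of the 4. Of the 8 libraries, 6 correlated best with their own number. Whether the numbers pair libraries is therefore not settled. Over all genes, 627 were higher and 734 lower with quantile normalization, 227 were higher and 297 lower with the macrophage covariate, 270 and 449 without Pdpk1 KO replicates 2 and 3, and 360 and 1054 with total read scaling. Leaving out single libraries gave 389 to 588 higher and 495 to 724 lower, with 389 higher without WT replicate 4 and 395 without Pdpk1 KO replicate 3.

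The following uncalled changes changed sign. The macrophage covariate put H2-Q4 at 0.032, Tap1 at 0.023, H2-T22 at 0.055, Psme1 at -0.049, Psmb6 at -0.089, Psmb5 at -0.146 and Cd8b1 at -0.007. Without Pdpk1 KO replicates 2 and 3, H2-Q4 was at 0.013, Tap1 at 0.016, H2-T22 at 0.077, Psme1 at -0.021, Psmb6 at -0.033, Psmb5 at -0.072 and Zbtb46 at 0.006. Total read scaling put Nlrc5 at -0.010, Psme1 at -0.104, Psmb6 at -0.106 and Psmb5 at -0.063. Quantile normalization put Psme1 at -0.051, Psmb6 at -0.033 and Eomes at 0.025. The class II covariate put Psme1 at -0.120, Psmb6 at -0.154, Psmb5 at -0.066 and Cd8b1 at -0.010. Psmb6 was at -0.003 in edgeR and DESeq2. Leaving out single libraries gave ranges of -0.144 to 0.079 for B2m, -0.085 to 0.001 for H2-D1, -0.048 to 0.022 for Tap2, -0.018 to 0.221 for Nlrc5, -0.093 to 0.009 for H2-T22, -0.076 to 0.076 for Psme1, -0.101 to 0.087 for Psmb6, -0.029 to 0.137 for Psmb5, -0.270 to 0.035 for Eomes and -1.81 to 0.166 for Zbtb46. The cause of these shifts was not tested.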
